A study of Arabidopsis thaliana with 4 samples.

Results

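The 10 genes described here encode transcription factors that delay flowering in Arabidopsis thaliana. They were chosen as a list of named loci, with no threshold on a measured value, and all 10 were found among the 33977 gene rows of the count tables. All 10 also passed the filter on low counts, which kept 19919 genes. They are FLC, MAF1 (also called FLM), MAF4, MAF5 and SVP of the MADS-box family, TEM1 and TEM2 of the RAV family, and SMZ, SNZ and TOE1 of the AP2-like family. RNA was sequenced from 2 Col-0 wild-type plants and 2 plants in the Col-0 background that overexpressed PPD3, a PsbP-domain protein, each plant being 1 library. All were grown at 22 °C with 16 h of light per day and frozen at bolting. One label names the whole plant and another the whole rosette as the material. No source used here gives the promoter behind the overexpression, the number of transgenic lines, plant age or hour of harvest.

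As background, flowering repressors act by keeping down a small set of floral integrators, above all FT, the mobile protein made in leaves, and SOC1, which acts in the shoot apex. FLC and its MAF relatives bind these genes as MADS-domain complexes together with SVP. TEM1 and TEM2 repress FT and also the gibberellin synthesis genes GA3OX1 and GA3OX2, while SMZ, SNZ and TOE1 repress FT and are themselves held down by the microRNA miR172. Laboratory Col-0 carries a non-functional FRI, the activator of FLC, so its FLC level is low without vernalization.

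The miR172 site is shown because it is a feature that SMZ, SNZ and TOE1 share. The mature microRNAs of the 3p arm, read from the RefSeq TAIR10.1 annotation, fall into 1 seed group (bases 2 to 8, in capitals); miR172a and miR172b-3p have the same sequence, as do miR172c and miR172d-3p.
miR172a: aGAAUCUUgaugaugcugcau
miR172c: aGAAUCUUgaugaugcugcag
miR172e-3p: gGAAUCUUgaugaugcugcau
The best match to miR172a lay within the coding sequence of each AP2-like repressor. The sites are written on the gene's own strand, with the bases opposite the seed in capitals. They lie at chr3:20373774-20373794 (minus strand) in SMZ, at chr2:16389066-16389086 (minus strand) in SNZ and at chr2:12226233-12226253 (minus strand) in TOE1. The site of TOE2, which is no member, at chr5:24210889-24210909 (plus strand), is given as the closest match.
SMZ: ttgcagcatcatcAGGATTCc
SNZ: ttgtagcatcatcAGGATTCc
TOE1: cagcagcatcatcAGGATTCt
TOE2: atgcagcatcatcAGGATTCt
Against miR172a the SMZ and TOE1 sites had 2 mismatches and 1 G:U pair, the SNZ site 2 mismatches and 2 G:U pairs, and the TOE2 site 0 mismatches and 1 G:U pair. The capital letters were the same in all 4, and the best windows in TEM1, TEM2, FLC and SVP, the other members searched, had 6 or 7 mismatches.

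**Figure D1:**
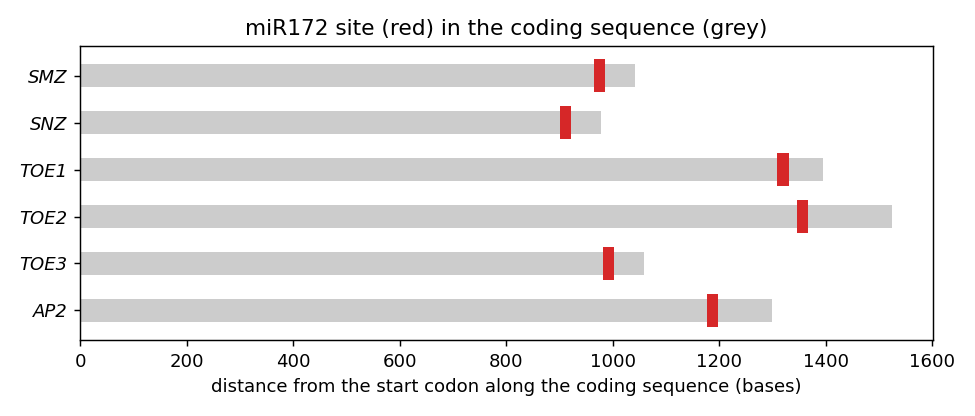
Position of the miR172 site (red) along the coding sequence (grey, in bases from the start codon) of the 3 AP2-like repressors and of TOE2, TOE3 and AP2. In SMZ the site spans coding bases 965 to 985 of 1041, in SNZ 902 to 922 of 978 and in TOE1 1310 to 1330 of 1395.

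Libraries held 33771093 to 40727172 counts assigned to genes. Values are CPM, the count of a gene scaled to the size of its library with TMM factors, and 1 count was worth 0.0250 to 0.0292 CPM. Means are given ± SD over the 2 plants of a genotype, and log2 fold changes compare the overexpressor with Col-0, ± SE from edgeR's quasi-likelihood test, whose p-values were adjusted over all genes tested. The labels call the samples individual plants. PPD3 was taken to be AT1G76450 from general knowledge, since RefSeq gives that locus no symbol. It matched the labels, at 103 and 70.7 CPM in Col-0 against 2836 and 3264 CPM in the overexpressor. This 35.2-fold difference had an edgeR adjusted p of 0.0623 and a DESeq2 adjusted p of 4.42e-86, so edgeR with 2 plants per genotype did not call it either. The leaf genes RBCS1A, RCA, LHCB1.1 and LHCB2.2 summed to between 12165 and 20559 CPM, and 5 root markers to at most 0.399 CPM, with 2 of them at 0 counts throughout. The 8 floral organ markers were present at low levels, summing to 17.9 and 8.87 CPM in wild type and 28.5 and 22.6 CPM in the overexpressor. In RNA from whole organs, fewer cells of a type and less RNA per cell cannot be told apart.

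Of the 10 repressors, 0 passed edgeR at an adjusted p of 0.05, where 0.00502% of all genes passed. By unadjusted edgeR p under 0.05 the count was 6 (2 higher and 4 lower), against 33.1% of all genes, and at an adjusted p of 0.10 it was 2 (SVP and TEM1), against 20.7%. DESeq2 called 2, SVP and TEM1, both lower, against 18.0% of the genes it gave an adjusted p, so that 2 of 10 is near the background share (8.35% of genes were called higher and 9.65% lower). In 8 of the 10 the plants of the 2 genotypes did not overlap (3 higher and 5 lower), against 67.0% of all genes (33.9% higher and 33.0% lower). The median log2 fold change over the 10 was -0.28, beside 0.01 over all genes. The RAV-family repressors, SVP, MAF1 and MAF5 stood lower in the overexpressor, SMZ, SNZ and MAF4 higher, and TOE1 and FLC overlapped.

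**Figure D2:**
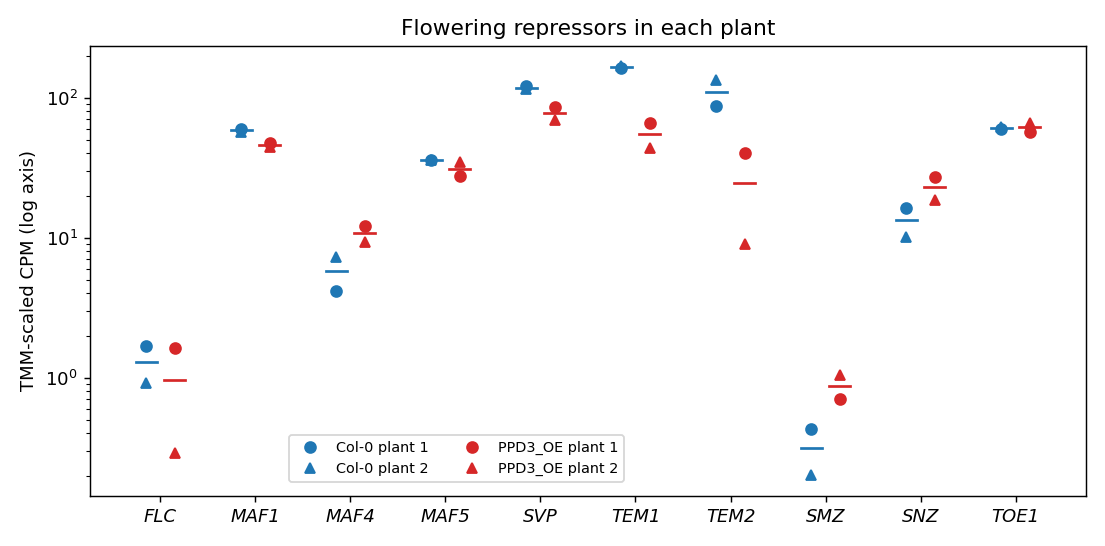
Level of each repressor in each plant, as TMM-scaled CPM on a log axis, with blue for Col-0, red for PPD3_OE, circles for plant 1, triangles for plant 2 and bars for genotype means. TEM1 shows the clearest gap, with wild-type plants at 165 and 168 CPM and overexpressor plants at 66.5 and 43.8 CPM.

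TEM1 (AT1G25560), a repressor of FT and of gibberellin synthesis, lies on chromosome 1 from 8981556 to 8983314 on the minus strand and has 1 exon. Its level was 165 and 168 CPM in Col-0 and, in overexpressor plants 1 and 2, 66.5 and 43.8 CPM. Values of a genotype are given in that order, plant 1 first, throughout. The wild-type plants were nearly equal and the overexpressor plants both far below them. The mean went from 166 ± 2.2 to 55.2 ± 16.1 CPM, 3.01-fold lower (log2 fold change -1.59 ± 0.24). Its edgeR adjusted p was 0.0623 and its DESeq2 adjusted p 2.58e-07. DESeq2 also called TEM1 with any 1 plant left out, with adjusted p from 3.10e-09 to 0.00384.

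TEM2 (AT1G68840, named RAV2 in RefSeq) acts with TEM1 and lies on the same chromosome from 25880155 to 25882222 on the plus strand. It was at 86.9 and 134 CPM in wild type and at 40.4 and 9.07 CPM in the overexpressor. The genotypes did not overlap, and the overexpressor plants differed from each other by 2.16 on the log2 scale. The mean went from 110.3 ± 33.1 to 24.7 ± 22.2 CPM, a log2 fold change of -2.15 ± 0.76 (4.45-fold lower), with an edgeR adjusted p of 0.140 and a DESeq2 adjusted p of 0.104. Without overexpressor plant 1 the edgeR log2 fold change was -3.60, and without overexpressor plant 2 it was -1.45. Without wild-type plant 1 it was -2.45, and without wild-type plant 2 it was -1.82. Each such fit left 1 plant in a genotype. DESeq2 fits of this kind called TEM2 with overexpressor plant 1 or 2 left out, but not with wild-type plant 1 or 2 left out. The coding sequences of TEM1 and TEM2 were identical at 80.7% of 1029 aligned bases. None of the 150-base windows of either mRNA, the length of the reads, occurred in a transcript of another gene.

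The RAV relatives RAV1 and EDF3, which are not members, were also lower in both overexpressor plants, and DESeq2 called RAV1 but not EDF3. RAV1, a regulator of leaf growth and senescence, was at 172 and 184 CPM in wild type and at 109 and 51.8 CPM in the overexpressor (log2 fold change -1.15 ± 0.38, edgeR adjusted p = 0.127, DESeq2 adjusted p = 0.0201). EDF3 was at 3.30 and 4.08 CPM against 2.45 and 2.07 CPM (-0.71 ± 0.22, edgeR adjusted p = 0.114, DESeq2 adjusted p = 0.146). In all 4 RAV genes the overexpressor plants lay below the wild-type plants, with overexpressor plant 2 the lowest, where 33.0% of all genes had both overexpressor plants below both wild-type plants. Touch and jasmonate response genes also separated the overexpressor plants. A list of 9 of them summed to 903 and 1646 CPM in Col-0 and, for overexpressor plants 1 and 2, to 3382 and 638 CPM, and the genotypes overlapped in all 9. Of these, AOS, an enzyme of jasmonate synthesis, had a log2 fold change of 1.09 ± 0.55 and the calmodulin-like TCH2 0.93 ± 0.72, while TCH3 was at -0.84 ± 0.61 and TCH4 at -0.18 ± 0.95. Their part in the spread of TEM2 and RAV1 was not tested.

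**Figure D3:**
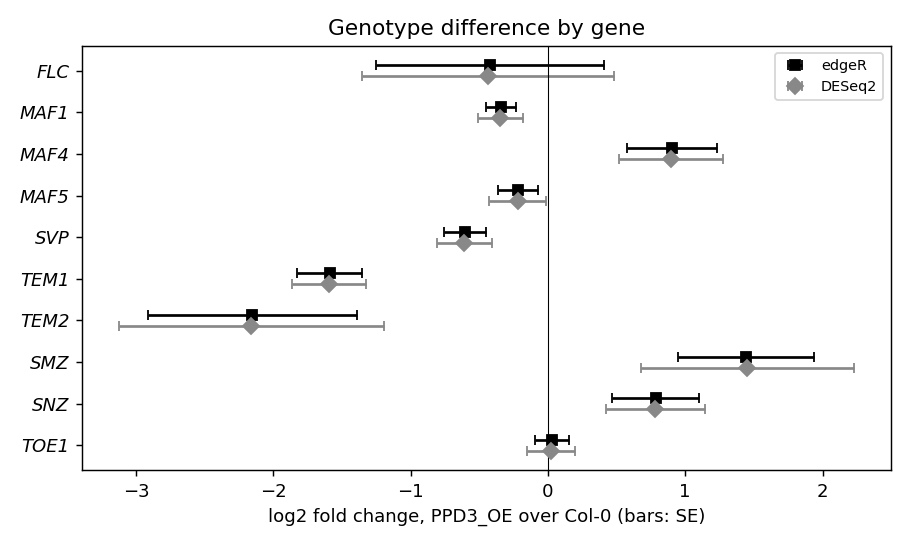
Log2 fold change of each repressor, overexpressor over wild type, with SE bars, from edgeR (black squares) and DESeq2 (grey diamonds). TEM1 and TEM2 lie lowest at -1.59 and -2.15, SMZ highest at 1.44 and TOE1 at 0.03 by edgeR.

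SVP (AT2G22540), the MADS-domain partner of FLC and MAF1, lies on chromosome 2 from 9579647 to 9583901 on the plus strand. It was at 121 and 115 CPM in wild type and at 86.0 and 69.1 CPM in the overexpressor. The wild-type plants were close together and above both overexpressor plants. The mean went from 118 ± 3.9 to 77.6 ± 11.9 CPM, 1.52-fold lower (log2 fold change -0.60 ± 0.15). The edgeR adjusted p was 0.0869 and the DESeq2 adjusted p 0.0183. The DESeq2 call was lost without wild-type plant 2 (DESeq2 adjusted p = 0.345), overexpressor plant 1 (DESeq2 adjusted p = 0.0745) or overexpressor plant 2 (DESeq2 adjusted p = 0.566), while the edgeR log2 fold change ran from -0.77 to -0.45 with any 1 plant left out. AGL24, the closest relative of SVP but a promoter of flowering, was at 28.9 and 31.2 CPM in wild type and 34.6 and 31.9 CPM in the overexpressor (0.15 ± 0.11, edgeR adjusted p = 0.391).

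FLC (AT5G10140), the central repressor that vernalization silences, lies on chromosome 5 from 3173382 to 3179448 on the minus strand. It had 62 and 32 counts in wild type and 65 and 10 counts in the overexpressor, or 1.68, 0.919, 1.62 and 0.292 CPM in that order. Overexpressor plant 1 matched wild-type plant 1, and overexpressor plant 2 was the lowest, so the genotypes overlapped. The log2 fold change was -0.42 ± 0.83 (edgeR adjusted p = 0.747). Its sign turned without wild-type plant 1 (0.05) or overexpressor plant 2 (0.32), and without overexpressor plant 1 the value was -2.14. The antisense RNA COOLAIR (AT5G01675), which helps to silence FLC, covers 68.1% of the annotated exon bases of FLC. Its row held 0 counts in every library, where 3 counts would be at most 0.0875 CPM. The library kit does not mark strand, so reads over shared bases cannot be given to either gene, and the counts of FLC are uncertain. Of the 150-base windows of the FLC mRNA, 49.6% occurred in a transcript of another gene. That search took both strands, so it also counted overlapping antisense transcripts such as COOLAIR.

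MAF1 (AT1G77080), a repressor that responds to ambient temperature through alternative splicing, lies on chromosome 1 from 28955483 to 28960234 on the plus strand. It was at 60.3 and 56.7 CPM in wild type and 47.8 and 44.5 CPM in the overexpressor, each genotype tight and the 2 apart. The log2 fold change was -0.34 ± 0.11 (edgeR adjusted p = 0.115, DESeq2 adjusted p = 0.128). RefSeq lists 11 transcripts for MAF1, and counts per gene do not separate the splice forms that carry its activity.

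MAF4 (AT5G65070) and MAF5 (AT5G65080) sit in a tandem array with MAF2 and MAF3 on chromosome 5 from 25982254 to 26002619 on the plus strand, with gaps of 780 to 1301 bases between neighbours. MAF4 was at 4.19 and 7.30 CPM in wild type and at 12.2 and 9.31 CPM in the overexpressor. Both overexpressor plants were above both wild-type plants (log2 fold change 0.90 ± 0.33, edgeR adjusted p = 0.144, DESeq2 adjusted p = 0.0822), and with any 1 plant left out the value ran from 0.53 to 1.34. MAF5, which unlike FLC is induced by vernalization, was at 36.2 and 35.9 CPM in wild type and at 27.6 and 34.6 CPM in the overexpressor. Overexpressor plant 2 came close to the wild-type plants, and the log2 fold change was -0.21 ± 0.15 (edgeR adjusted p = 0.354). The other array genes were lower too, MAF2 by -0.27 ± 0.10 and MAF3 by -0.41 ± 0.12 on the log2 scale (edgeR adjusted p = 0.158 and 0.102). Ratios of genes within a plant are not touched by scaling between libraries. MAF4 over MAF3 was 0.210 and 0.384 in wild type and 0.783 and 0.674 in the overexpressor. MAF4 over MAF5 had a narrower gap, at 0.116 and 0.203 in wild type and 0.441 and 0.269 in the overexpressor. With 2 plants per genotype, an exact two-sided permutation test of either ratio cannot go below 0.333.

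The array genes are similar in sequence. The coding start of MAF4 is printed with the matching stretch of each neighbour, with capitals for bases that differ from MAF4. The stretches are chr5:25982415-25982474, chr5:25987527-25987586, chr5:25992310-25992369 and chr5:25997671-25997730 for MAF2 to MAF5, all on the plus strand of TAIR10.1. For MAF5 the stretch begins at coding base 22.
MAF2: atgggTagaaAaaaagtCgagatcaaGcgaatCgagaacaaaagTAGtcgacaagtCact
MAF3: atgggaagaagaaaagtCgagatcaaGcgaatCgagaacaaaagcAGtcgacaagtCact
MAF4: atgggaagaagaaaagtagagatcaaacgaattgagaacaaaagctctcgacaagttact
MAF5: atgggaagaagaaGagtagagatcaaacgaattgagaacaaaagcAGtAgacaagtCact
In these 60 bases MAF2 differed from MAF4 at 9, MAF3 at 6 and MAF5 at 5. Over the whole coding sequence MAF4 was identical to MAF5 at 84.6% of 591 aligned bases, to MAF1 at 81.2% and to FLC at 73.8% of 587. MAF2 and MAF3 were closest to each other, at 93.6%. No 150-base window of the MAF1, MAF4 or MAF5 mRNA occurred in a transcript of another gene.

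**Figure D4:**
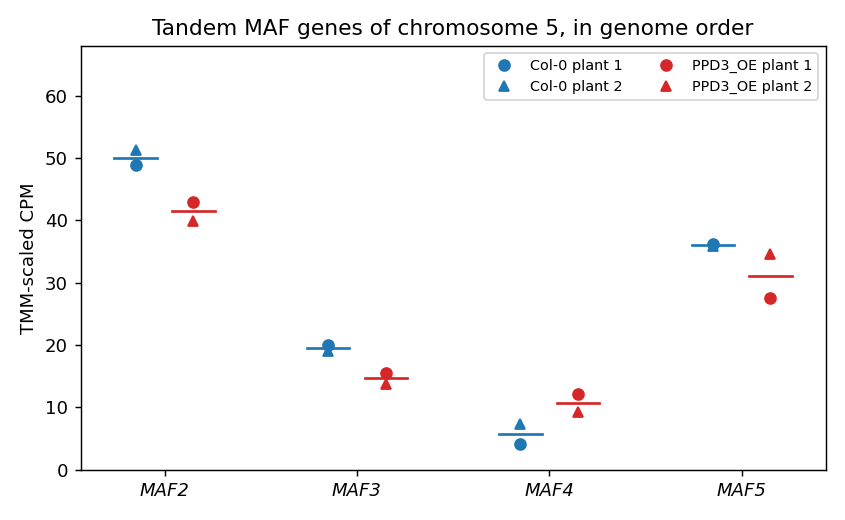
Levels of the 4 tandem MAF genes in each plant, in TMM-scaled CPM, with bars for genotype means. MAF4 is the array gene with overexpressor plants (12.2 and 9.31) above wild-type plants (4.19 and 7.30), while the means of MAF2, MAF3 and MAF5 are lower in the overexpressor.

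SMZ (AT3G54990) was the least abundant member in wild type, with 16 and 7 counts in wild type and 28 and 36 counts in the overexpressor. Its levels were 0.433 and 0.201 CPM against 0.699 and 1.05 CPM, with both overexpressor plants above both wild-type plants. The log2 fold change was 1.44 ± 0.49, or 2.72-fold, with an edgeR adjusted p of 0.133 and a DESeq2 adjusted p of 0.190. SMZ lies on chromosome 3 from 20373718 to 20376522 on the minus strand, and 30.6% of its exon bases are also exon of AT3G54980 on the other strand. That neighbour was at 8.22 and 8.53 CPM in wild type and 9.76 and 12.6 CPM in the overexpressor, so the SMZ count is uncertain without strand. Of the 150-base windows of the SMZ mRNA, 11.3% occurred in a transcript of another gene, in a search that also counted antisense transcripts such as AT3G54980. With any 1 plant left out the log2 fold change ran from 0.98 to 2.07.

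SNZ (AT2G39250), the paralog of SMZ, lies on chromosome 2 from 16388691 to 16391176 on the minus strand with no overlapping gene. It was at 16.4 and 10.2 CPM in wild type and at 27.4 and 18.5 CPM in the overexpressor. The higher wild-type plant lay just under the lower overexpressor plant (log2 fold change 0.79 ± 0.32, edgeR adjusted p = 0.172, DESeq2 adjusted p = 0.114). The edgeR log2 fold change ran from 0.47 to 1.15 with any 1 plant left out. DESeq2 called SNZ with wild-type plant 1 left out, but not with any other plant left out. The SMZ and SNZ coding sequences were identical at 76.7% of 964 aligned bases.

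TOE1 (AT2G28550, named RAP2.7 in RefSeq) lies on chromosome 2 from 12225656 to 12228624 on the minus strand. It was at 59.5 and 61.8 CPM in wild type and 57.4 and 66.4 CPM in the overexpressor. The overexpressor plants fell on either side of the wild-type plants, and the log2 fold change was 0.03 ± 0.12 (edgeR adjusted p = 0.889), a sign that turned with library size as scaling (-0.016), without wild-type plant 1 (-0.03) and without overexpressor plant 2 (-0.080). The ratio of SNZ to TOE1, both carrying the miR172 site, was 0.276 and 0.164 in wild-type plants and 0.477 and 0.278 in overexpressor plants.

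The other AP2-like genes with the site gave small values: TOE2 0.13 ± 0.12, TOE3 -0.16 ± 0.16 and AP2 0.11 ± 0.10 on the log2 scale, with edgeR adjusted p of 0.508, 0.537 and 0.484. Mature miR172 was not measured in these libraries. Of its 5 precursor genes, MIR172C, MIR172D and MIR172E had 0 counts in every library, MIR172A had at most 2 counts, and MIR172B was at 0.298, 0.144, 0.125 and 0.321 CPM. SPL9, which activates MIR172 genes, was at 16.8 and 13.3 CPM in wild type and 18.3 and 19.5 CPM in the overexpressor (0.33 ± 0.15, edgeR adjusted p = 0.215). The related SPL5 was at 0.31 ± 0.19 and SPL10 at -0.23 ± 0.12. Of the 13 genes on this list 6 were tested and 0 passed in edgeR or DESeq2. An unadjusted edgeR p under 0.05 was found for 0 of them, against 33.1% of all genes.

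Levels of different genes were compared per kilobase of annotated exon. In wild type the order of mean CPM per kilobase was TEM1 (94.4), SVP (65.8), TEM2 (53.6), MAF5 (29.4), TOE1 (23.0), MAF1 (13.1), SNZ (7.94), MAF4 (3.49), FLC (1.1) and SMZ (0.296). Of the neighbours in that order, SVP and TEM2 overlapped between plants, and the others did not. In the overexpressor the order began with SVP (43.3 CPM per kilobase), TEM1 (31.4), MAF5 (25.3) and TOE1 (23.5), and TEM2 (12.02) came after SNZ (13.7). There TEM1 overlapped MAF5, MAF5 overlapped TOE1, and SNZ overlapped TEM2, while SVP lay above TEM1 in both plants. The order depends on the length used. Per kilobase of the mRNA with the longest coding sequence, SVP (106) was above TEM1 (94.4) in wild type, and MAF1 (53.4) above MAF5 (45.6). An antisense gene shares 68.1% of the exon bases of FLC and 30.6% of those of SMZ. Reads there cannot be given to either gene while the full length was used, so these 2 levels are uncertain and may be too low.

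The targets of these repressors were listed beside them. FT, the target most of them share, was at 8.49 and 6.92 CPM in wild type and 4.42 and 7.18 CPM in the overexpressor, and the genotypes overlapped (log2 fold change -0.41 ± 0.29, edgeR adjusted p = 0.369). SOC1, a MADS-box integrator repressed by FLC and SVP, was lower, at 103 and 93.3 CPM against 47.7 and 73.7 CPM (-0.70 ± 0.24, edgeR adjusted p = 0.134, DESeq2 adjusted p = 0.0574). FD, the apex partner of FT, was lower as well, at 8.17 and 8.67 CPM against 5.54 and 5.02 CPM (-0.67 ± 0.15, edgeR adjusted p = 0.0761), and DESeq2 called it at an adjusted p of 0.0331.

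Of the gibberellin 3-oxidases that are direct targets of TEM1 and TEM2, DESeq2 called GA3OX2 higher and did not call GA3OX1. GA3OX2 was at 0.757 and 0.488 CPM in wild type and 2.30 and 3.94 CPM in the overexpressor, 4.96-fold higher (log2 fold change 2.31 ± 0.41, edgeR adjusted p = 0.0652, DESeq2 adjusted p = 4.35e-04). Overexpressor plant 2 had the lowest TEM1 and TEM2 and the highest GA3OX2, and a link between these levels was not tested. GA3OX1 was at 3.46 and 3.99 CPM against 4.14 and 7.76 CPM (0.67 ± 0.35, edgeR adjusted p = 0.253, DESeq2 adjusted p = 0.282), with overexpressor plant 1 just above the wild-type plants. AP1 (0.52 ± 0.30), LFY (0.47 ± 0.38), SEP3 (0.67 ± 0.40) and FUL (-0.13 ± 0.23), which act in floral meristems or organs, had edgeR adjusted p from 0.286 to 0.705. TSF, the paralog of FT, had 6 to 11 counts per library and was not tested. Among the 9 tested genes of this list DESeq2 called 1 higher and 1 lower, against 18.0% of all genes in either direction. By edgeR 0 passed and 3 had an unadjusted p under 0.05, against 33.1% of all genes. The list's median log2 fold change was 0.47.

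**Figure D5:**
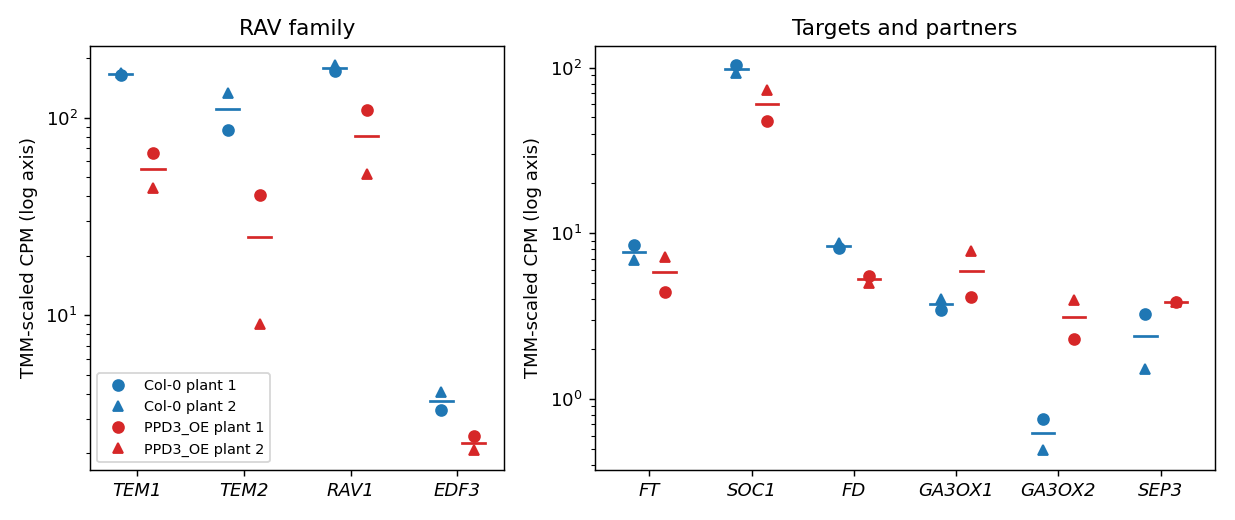
TMM-scaled CPM on log axes in each plant, for the RAV-family genes (left) and for 6 targets and partners of the repressors (right), with bars for genotype means. The overexpressor plants are below the wild-type plants in all 4 RAV genes and above them in GA3OX2 (2.30 and 3.94 against 0.757 and 0.488).

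TFL1, a repressor that keeps the inflorescence meristem indeterminate, was at 5.90 and 4.65 CPM in wild type and 1.65 and 2.65 CPM in the overexpressor. Its log2 fold change was -1.30 ± 0.31 (edgeR adjusted p = 0.0821, DESeq2 adjusted p = 0.00943). Its relative BFT, whose count is uncertain because an antisense gene shares its exons, was at -0.57 ± 0.32 (edgeR adjusted p = 0.282), and ATC, with 7 to 10 counts per library, was not tested. The list of related genes, made of repressors and their close relatives such as AGL24 and RAV1, had 10 tested members. Of these DESeq2 called 2 lower, TFL1 and RAV1, against 9.65% of all genes, and edgeR called 0. At an unadjusted edgeR p under 0.05 there were 4 lower and 0 higher, against 33.1% of all genes in either direction. The list's median log2 fold change was -0.34.

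Markers of tissues in which some of these genes are expressed were compared as well. The shoot apex genes STM and KNAT1 were lower in the overexpressor, and DESeq2 called both, where it called 9.65% of all genes lower. STM was at 23.2 and 27.3 CPM in wild type against 11.9 and 14.1 CPM, and KNAT1 at 27.3 and 33.7 against 10.03 and 17.8 CPM. WUS had at most 6 counts per library and CLV3 had 0 counts throughout. All 8 floral organ markers had a positive log2 fold change (list median 1.11), against 10204 of the 19919 genes tested. Of the 8, 5 were higher in both overexpressor plants, against 33.9% of all genes, and 3 overlapped. By edgeR and DESeq2 0 of the 8 passed, and 1 had an unadjusted edgeR p under 0.05, against 33.1% of all genes. CAL was at 1.64 ± 0.47 and SEP1 at 1.24 ± 0.49 on the log2 scale (DESeq2 adjusted p = 0.196 and 0.0856). The 6 markers of dividing cells summed to 77.6 and 64.6 CPM in wild type and 129 and 120 CPM in the overexpressor. DESeq2 called all 6 higher, against 8.35% of all genes. CYCB1;1 was at 1.20 ± 0.14 and CYCA1;1 at 0.96 ± 0.16 on the log2 scale. How far such tissue differences enter the values of TFL1, FD, SOC1 and SVP was not tested.

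Upstream regulators of FLC were compared next. Of 18 tested genes that raise FLC, 0 passed in edgeR or DESeq2, where DESeq2 called 18.0% of all genes. An unadjusted edgeR p under 0.05 was found for 3, against 33.1% of all genes. The list's median was -0.09 on the log2 scale. The genotypes did not overlap in 5 that were higher and 9 that were lower, against 67.0% of all genes in either direction. The histone methyltransferases ATX1 (0.42 ± 0.12) and SDG8 (0.30 ± 0.10) were higher in both overexpressor plants. SUF4, the DNA-binding part of the FRI complex, was lower (-0.37 ± 0.12), and VIP5 was at -0.25 ± 0.10. FRI was at 8.58 and 6.55 CPM in wild type and 5.97 and 5.86 CPM in the overexpressor.

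Of the 10 autonomous pathway genes, which lower FLC, DESeq2 called 1 lower and 1 higher, against 18.0% of all genes in either direction. By edgeR 0 passed and 2 had an unadjusted p under 0.05, against 33.1% of all genes. The list's median was 0.16 on the log2 scale. FCA, an RNA-binding protein that acts through COOLAIR, was at 38.6 and 44.9 CPM in wild type and 28.0 and 28.4 CPM in the overexpressor (-0.57 ± 0.12, edgeR adjusted p = 0.0728, DESeq2 adjusted p = 0.0165). FVE, a WD-repeat protein of chromatin complexes, was at 59.4 and 53.1 CPM against 74.9 and 82.9 CPM (0.49 ± 0.12, edgeR adjusted p = 0.0874, DESeq2 adjusted p = 0.0343). FPA was at -0.15 ± 0.14 and the histone demethylase REF6 at 0.24 ± 0.10.

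Among 8 tested vernalization and Polycomb genes DESeq2 and edgeR called 0, where DESeq2 called 18.0% of all genes. An unadjusted edgeR p under 0.05 was found for 3, against 33.1% of all genes. The median log2 fold change was 0.05. CLF, the Polycomb methyltransferase that silences FLC and FT, was at 18.2 and 18.0 CPM in wild type and 28.1 and 23.7 CPM in the overexpressor (0.52 ± 0.13, edgeR adjusted p = 0.0849). VRN5 was at 0.42 ± 0.11, LHP1 at -0.25 ± 0.10 and SWN at -0.21 ± 0.11. VIN3, which cold induces, had 1 to 7 counts per library.

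In the photoperiod list DESeq2 called 3 of 9 genes lower and 0 higher, against 9.65% of all genes lower and 8.35% higher. By edgeR 0 passed and 4 had an unadjusted p under 0.05, against 33.1% of all genes. CDF2, a repressor of CO and FT, was at 25.2 and 20.4 CPM in wild type and 11.0 and 5.78 CPM in the overexpressor (-1.44 ± 0.35, DESeq2 adjusted p = 0.00212). CDF1 (-0.71 ± 0.14, DESeq2 adjusted p = 0.00986) and GI, which helps to remove the CDF proteins (-0.60 ± 0.16, DESeq2 adjusted p = 0.0185), were lower too. COP1 (0.11 ± 0.13) and SPA1 (0.16 ± 0.13), which degrade CO protein, had edgeR adjusted p of 0.584 and 0.442. CO itself was at 2.27 and 2.53 CPM against 1.42 and 2.65 CPM. The list's median was -0.40.

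The genes whose pattern over the 4 libraries lay nearest to that of SVP, by Euclidean distance of centred log2 CPM, were AT4G06775 (distance 0.0355), AT5G07890 (0.0442) and RPS4 (0.0448). RPS4, a disease resistance gene, was at 61.9 and 60.1 CPM in wild type and 45.8 and 36.8 CPM in the overexpressor. Nearest to FLC were AT1G21550 (0.364), LAC7 (0.381) and LSU3 (0.418). LSU3 was at 27.0 and 22.7 CPM in wild type and 32.6 and 6.33 CPM in the overexpressor, low in overexpressor plant 2 as FLC was. With 4 libraries such nearness is a description only.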

How the data were processed

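Total RNA was made into TruSeq v2 libraries, a kit that does not mark strand, and sequenced as 150-base single reads, per the labels' protocols. They gave whole-number counts per gene, which the authors deposited without normalization. The submitters' processing notes name TAIR10 and DESeq2; no aligner, counter or annotation is named there. The 5 rows that name no gene were left out. They include ambiguous reads (3.67% to 4.18% of the total) and reads with several alignments (4.18% to 5.61%).

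Counts were tested in R 4.3.3 with edgeR 4.0.16 (quasi-likelihood, filterByExpr with a minimum count of 10 and total of 15, TMM, Benjamini-Hochberg over 19919 genes, called under 0.05, 2 residual degrees of freedom, no covariate). DESeq2 1.42.0 and limma 3.58.1 with voom were alternatives. The edgeR script was tested on simulated data. Replicates differed by far more than counting noise. The members and lists were chosen with earlier results of these data known.

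Named were all members, PPD3, each tested gene of the repressor and target lists, up to 2 genes per direction from other lists by smallest p, and the 3 nearest genes of FLC and SVP; FRI, CO, GI, AT3G54980 and genes given only by their counts were added after their values were seen. Positions, lengths and sequences came from the RefSeq annotation of TAIR10.1 (the files hold no coordinates), read with pysam 0.24.0. Coding sequences were aligned globally with Biopython 1.88. The floor of 3 counts covers counting error only, while SD and SE include the spread between plants. Alternatives were other scalings, filters and tests, plants left out in turn, and a replicate block.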

Additional observations from a re-analysis of the deposited data

How the results depend on the processing

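The count of genes called by edgeR, 1 in the fit reported, was 1 under each of 3 other scalings, 13 with no filter on low counts, 0 with a filter of 5 CPM in 2 libraries, 0 with limma and voom, 3672 with DESeq2, and 4129 at an adjusted p of 0.10. It was 0 to 0 with any 1 plant left out. Such fits keep 1 plant in a genotype, which is assumed to vary like the other genotype. Of the 10 repressors edgeR called 0 and DESeq2 2 (1 to 3 with any 1 plant left out), while DESeq2's count over all genes was 4505 without wild-type plant 1, 510 without wild-type plant 2, 1740 without overexpressor plant 1 and 962 without overexpressor plant 2. Of the other 114 listed genes, some of them not tested, edgeR called 0 and DESeq2 17, where DESeq2 called 18.0% of all genes. With the replicate number as a block 0 genes passed, and a crossed block, added after the data were seen because plants of the same number deviated oppositely (correlation -0.30), gave 137 with 0 repressors. Neither block changed a call on a repressor. In the DESeq2 fits with 1 plant left out, the repressors called were not always the same ones. Those fits are not in the following tally. Among the other refits of single repressors 121 kept direction and call, 5 turned sign and 2 gained a call. Those that turned sign were FLC without wild-type plant 1 (0.05) or overexpressor plant 2 (0.32; lowest -2.14 without overexpressor plant 1) and TOE1 with library size as scaling (-0.016), without wild-type plant 1 (-0.03) or overexpressor plant 2 (-0.080; highest 0.13 without overexpressor plant 1). DESeq2 called SVP (-0.61) and TEM1 (-1.59). The cause of these shifts was not tested. FLC and SMZ were not kept by the 5 CPM filter. SMZ had 7 to 36 counts per library and FLC 10 to 65, which limits the precision of both.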
